A study of Mus musculus with 6 samples.

Results

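Interferon-stimulated genes are the genes that cells switch on when they sense interferon, and 40 of them were followed here among the 19938 genes measured in mouse ileum. They were taken from a list of 44 gene symbols. A gene counted as measured where the array's probe table gave it a probe set with no other symbol, and the probe set with the highest mean over all arrays stood for it. Isg15, Igtp and Gbp2 have only a probe set that is shared with other symbols, and Ifi44 was not listed, so these 4 were not analysed here.

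RNA of the whole ileal wall came from 6 individual mice, hybridised to 1 Affymetrix mouse Gene 1.0 ST array each. The 3 control mice carried Villin-CreERT2, a Cre recombinase that tamoxifen activates and that the Villin promoter drives in intestinal epithelium. The other 3, labelled GATA6 KO, carried Villin-CreERT2 together with GATA6 flox/flox alleles. All mice, controls included, received tamoxifen on 5 consecutive days at an age of 6 to 8 weeks, and ileum was taken 28 days later. The labels used here name neither strain nor sex. Villin is not active in the muscle, connective tissue and immune cells that a whole segment also holds.

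The log2 signal of Gata6 was 6.31, 6.33 and 6.50 on the control arrays and 6.93, 6.81 and 6.86 on those labelled Gata6 KO, so the targeted transcript was not lower (log2 fold change 0.49, SE 0.08, limma adjusted p = 0.0162). No source used here places its probe set relative to the deleted part, and outside that part it would check nothing. Directions are therefore given for the KO-labelled arrays. The array medians lay between 3.33 and 3.44. Mgam and Slc5a1, both made by absorptive enterocytes, read 9.95 and 9.67 in controls, far above those medians. Control replicate 3 carried signals of a male mouse (2.31 for Xist and 5.30 for the Y-linked Eif2s3y) and the other 5 arrays those of females, so sex was not balanced.

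Type I and type III interferons act through receptors that activate a complex holding STAT2 and IRF9, which binds the interferon-stimulated response element (ISRE) of target promoters. Type II interferon, interferon gamma, acts mainly through another promoter element, the gamma-activated site (GAS). The targets sense viral nucleic acid, block viral replication, display peptides on the cell surface and dampen the signal itself. In the intestine a low level of such transcripts is present without infection, and the epithelium is a main responder to type III interferon.

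Interferon-stimulated genes were lower in the KO-labelled ileum. The members were chosen with earlier results of these data known, so their counts are a description and no independent check. At an adjusted p under 0.05, 24 of the 40 fell, 0 rose and 16 passed in neither direction (limma, Benjamini-Hochberg adjustment over all genes), while 3.25% of all genes tested fell and 4.99% rose. Over all genes that is 648 lower and 995 higher, or 565 and 1562 with each array centred on its median, where 27 members fell and 0 rose. At an unadjusted p under 0.05 the counts were 33 lower and 0 higher, against 2051 and 2877 of all 19938 genes. The median log2 fold change over the 40 was -0.76, against -0.00 over all genes. It was below 0 for 38 members, above 0 for Iigp1 and 0 for Samd9l. Changes were at least 2-fold in 13 of the 24 that fell. In 32 members every control array read above every KO-labelled array, which held for 12.6% of all genes, and in none was the order the opposite; groups without overlap in either direction made up 29.3% of all genes. Fewer cells of a responding type and less RNA per cell cannot be told apart in RNA of a whole segment.

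**Figure D1:**
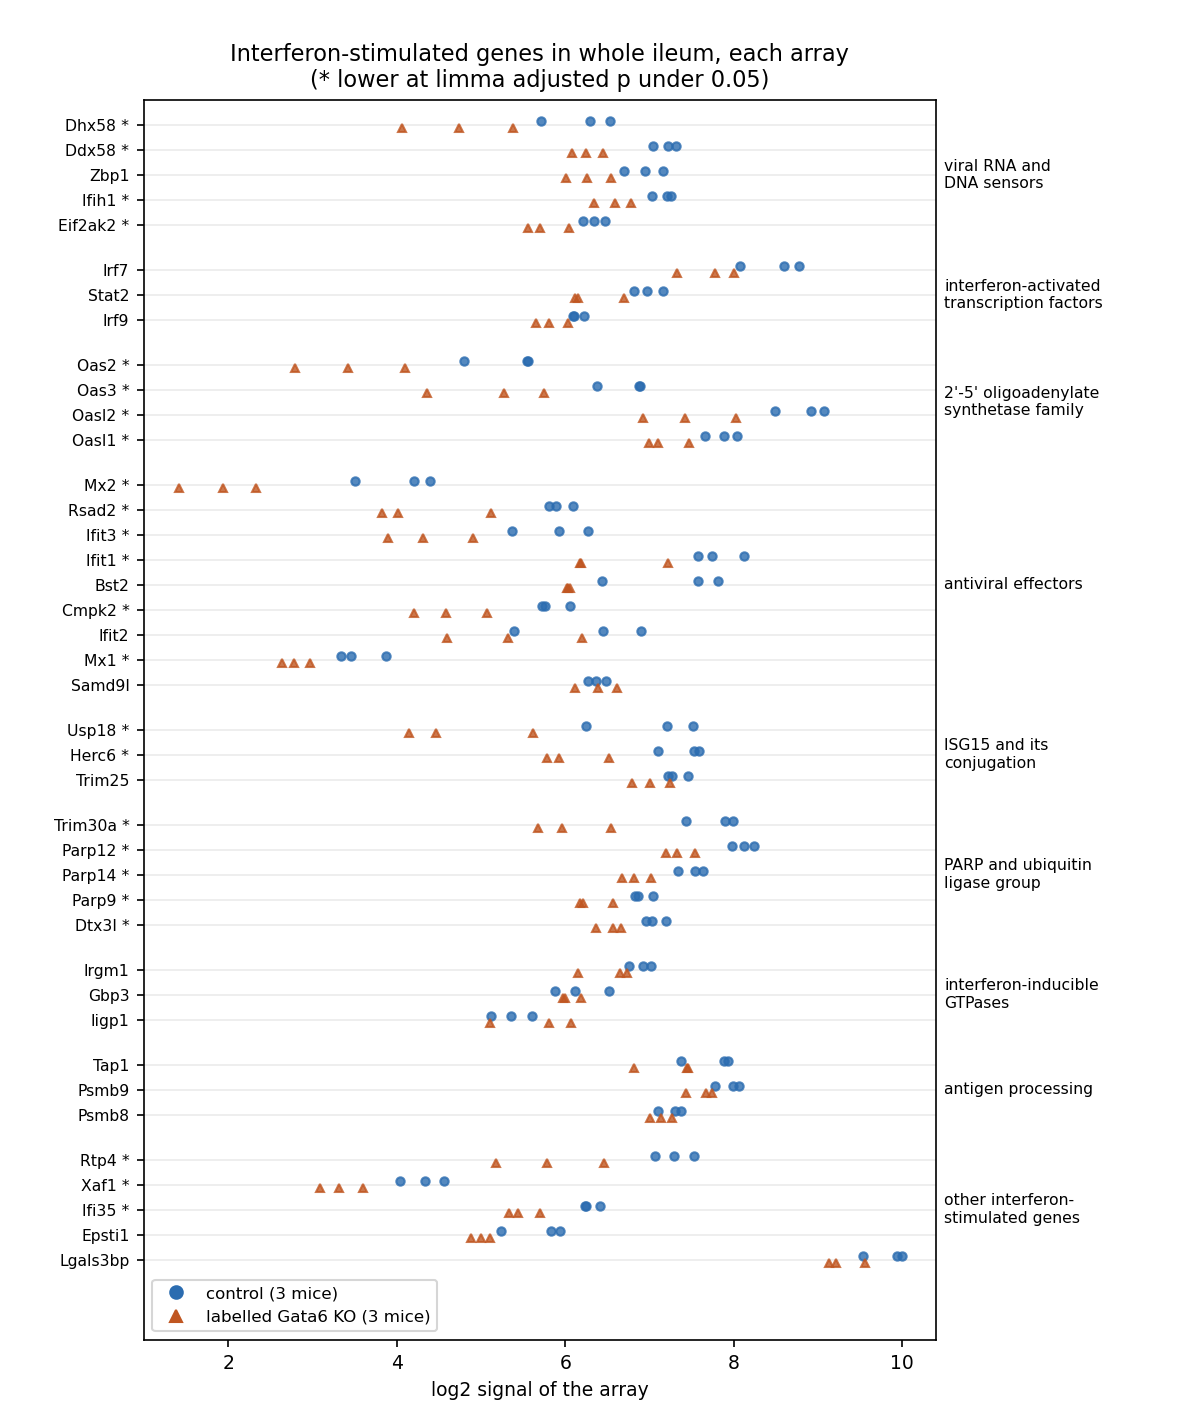
Log2 signal of the 40 measured interferon-stimulated genes (rows, grouped by role) on each of the 3 control arrays (circles) and 3 arrays labelled Gata6 KO (triangles); an asterisk marks a limma adjusted p under 0.05. The groups are apart in 32 rows, and the 3 GTPases and 3 antigen processing genes near the bottom carry no asterisk.

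The response has a characteristic promoter element, so the windows from 250 bases before to 50 bases after the annotated start were searched in the RefSeq promoter table (GRCm38.p6), which held 30 of the 40 members. The ISRE core was searched as GAAANNGAAA on both strands and the GAS as TTCNNNGAA, which reads the same on both. Matches of the motifs can share bases, as they did in 24 of all windows and 1 window of a member. The ISRE core was found in 12 of the 30 members (40.0%), in 3.89% of the 15614 tested genes with a window, and in 3.44% of all 32851 windows of that length. Of the 12 members with it 8 fell, and of the 18 without it 8 fell. The GAS was found in 5 of the 30 (16.7%), in 8.99% of the tested genes and in 8.30% of all windows. Of the 5 members with it 2 fell, and of the 25 without it 14 fell. Among genes outside the list, 3.36% of the 595 with an ISRE core fell and 3.10% of the 14989 without it. For the GAS these shares were 2.72% of 1398 and 3.15% of 14186. A match is a description of letters and not of a bound site.

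The windows of 3 genes that fell (Ifit1, Ifit3 and Ddx58) and of 2 that carry the core but did not pass (Irgm1 and Gbp3) show the ISRE core. Capitals mark every base of an ISRE core, which on the opposite strand appears as its reverse complement. Each window runs 5′ to 3′ along its gene, from RefSeq on GRCm38.p6.
Ifit1, chr19:34640639-34640938, plus strand: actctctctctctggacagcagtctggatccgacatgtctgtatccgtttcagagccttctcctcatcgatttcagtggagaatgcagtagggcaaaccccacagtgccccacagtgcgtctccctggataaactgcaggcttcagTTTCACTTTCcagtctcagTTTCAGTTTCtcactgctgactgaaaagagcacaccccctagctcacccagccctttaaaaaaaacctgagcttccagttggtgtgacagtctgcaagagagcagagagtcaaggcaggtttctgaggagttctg
Ifit3, chr19:34583279-34583578, plus strand: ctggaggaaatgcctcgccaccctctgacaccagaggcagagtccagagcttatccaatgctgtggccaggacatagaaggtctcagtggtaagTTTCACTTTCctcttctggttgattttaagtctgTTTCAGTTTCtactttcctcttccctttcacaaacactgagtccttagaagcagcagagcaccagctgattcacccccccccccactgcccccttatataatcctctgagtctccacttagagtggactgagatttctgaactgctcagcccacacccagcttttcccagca
Ddx58, chr4:40239776-40240075, minus strand: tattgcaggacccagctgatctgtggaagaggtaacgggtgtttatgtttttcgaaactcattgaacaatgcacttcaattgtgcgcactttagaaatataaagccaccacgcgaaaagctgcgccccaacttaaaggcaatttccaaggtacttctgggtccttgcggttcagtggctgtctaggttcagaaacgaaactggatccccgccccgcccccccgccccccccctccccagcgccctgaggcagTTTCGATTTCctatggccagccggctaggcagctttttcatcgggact
Irgm1, chr11:48871371-48871670, minus strand: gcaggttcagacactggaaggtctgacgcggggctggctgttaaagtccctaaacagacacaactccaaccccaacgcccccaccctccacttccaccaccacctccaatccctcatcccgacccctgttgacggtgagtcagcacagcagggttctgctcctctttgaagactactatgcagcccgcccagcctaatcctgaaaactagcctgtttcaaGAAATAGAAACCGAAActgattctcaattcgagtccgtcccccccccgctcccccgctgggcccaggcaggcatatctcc
Gbp3, chr3:142559794-142560093, plus strand: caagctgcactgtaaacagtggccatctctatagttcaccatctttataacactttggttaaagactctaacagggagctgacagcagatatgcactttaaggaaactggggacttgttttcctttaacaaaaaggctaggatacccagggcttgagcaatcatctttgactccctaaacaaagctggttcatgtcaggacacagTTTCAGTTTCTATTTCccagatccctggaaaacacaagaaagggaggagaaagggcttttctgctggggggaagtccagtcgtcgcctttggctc
Counting from 0 at the start site, the cores begin at -104 and -85 in Ifit1, at -156 and -122 in Ifit3 and at 2 in Ddx58. In Irgm1 those at -30 and -24 overlap, as do those at -45 and -39 in Gbp3. Another window of Gbp3, not printed here, holds no core.

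Of the sensors, 4 of 5 fell. Ddx58 encodes RIG-I, the cytosolic receptor for viral RNA ends. It read 7.22, 7.04 and 7.31 in controls and 6.07, 6.44 and 6.24 in KO-labelled arrays, a 1.92-fold decrease (log2 fold change -0.94, SE 0.12, limma adjusted p = 0.00511). Dhx58, which encodes LGP2, a regulator of RIG-I and MDA5, read 6.53, 5.71 and 6.29 against 4.06, 5.38 and 4.74, and fell by 1.45 on the log2 scale (SE 0.34, limma adjusted p = 0.0471). Its groups were apart, with KO-labelled replicate 2 closest to control replicate 2. Ifih1, which encodes MDA5, the sensor of long double-stranded RNA, fell by 0.59 (SE 0.13) and Eif2ak2, the RNA-activated kinase that stops translation, by 0.57 (SE 0.14). Zbp1, a sensor of left-handed nucleic acid that can trigger cell death, had a log2 fold change of -0.66 (SE 0.17) and missed the threshold (limma adjusted p = 0.0566). It met it with each array centred on its median (0.0375) and with quantile normalization (0.0319).

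None of the 3 transcription factors passed. In each all controls read above all KO-labelled arrays, as in 12.6% of all genes. The groups were apart by only 0.113 for Stat2, 0.063 for Irf9 and 0.074 for Irf7. Irf7, the factor that amplifies type I interferon production, read 8.59, 8.07 and 8.78 in controls and 7.33, 8.00 and 7.78 in KO-labelled arrays (log2 fold change -0.78, SE 0.22, limma adjusted p = 0.0837). Control replicate 2 and KO-labelled replicate 2 nearly met. Stat2 had a log2 fold change of -0.66 (SE 0.17, adjusted p = 0.0628) and Irf9, its DNA-binding partner, of -0.31 (SE 0.11, adjusted p = 0.137) by limma. Stat2 passed after quantile normalization (0.0353) and without Gata6 KO replicate 2 (0.0285).

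All 4 genes of the oligoadenylate synthetase family fell. The synthetases make a short adenylate chain that activates the RNA-cleaving enzyme RNase L. Oas2 read 5.54, 4.80 and 5.56 in controls and 2.80, 4.10 and 3.42 in KO-labelled arrays, a 3.63-fold decrease (log2 fold change -1.86, SE 0.34, limma adjusted p = 0.0205). KO-labelled replicate 1 was under the array medians, which leaves the size of the decrease uncertain. Oas3 read 6.88, 6.38 and 6.88 against 4.35, 5.75 and 5.28 (log2 fold change -1.59, SE 0.34). Oasl2 fell by 1.37 (SE 0.28) and Oasl1 by 0.67 (SE 0.15); both are synthetase-like proteins, of which Oasl1 is known to restrain Irf7 translation. The order of the KO-labelled arrays, replicate 2 highest and replicate 1 lowest, was that of Oas2 in all 4 genes.

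Among the effectors, 6 of 9 fell. Mx2, a dynamin-like GTPase that traps viral components, read 4.21, 3.51 and 4.40 in controls and 1.41, 2.33 and 1.94 in KO-labelled arrays (log2 fold change -2.14, SE 0.29, limma adjusted p = 0.00670). Mx1 had a log2 fold change of -0.76 (SE 0.16). The KO-labelled means of both, 1.89 and 2.80, were under the array medians, and their fold sizes are uncertain. Rsad2 encodes viperin, an enzyme that makes a chain-terminating nucleotide. It read 5.88, 5.81 and 6.09 against 3.82, 5.12 and 4.02, a 3.05-fold decrease (log2 fold change -1.61, SE 0.31, limma adjusted p = 0.0245). Cmpk2, a mitochondrial nucleotide kinase and the next protein-coding gene to Rsad2, fell by 1.23 (SE 0.21).

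The Ifit proteins bind viral RNA that lacks the host's cap methylation or block its translation. Ifit1 read 7.74, 7.58 and 8.12 in controls and 6.18, 7.21 and 6.17 in KO-labelled arrays, a 2.45-fold decrease (log2 fold change -1.29, SE 0.29, limma adjusted p = 0.0398). Ifit3 fell by 1.48 (SE 0.30, limma adjusted p = 0.0285). Ifit2, the neighbour of Ifit3, read 6.89, 5.39 and 6.44 against 5.32, 6.20 and 4.60, so its groups overlapped and it did not pass (log2 fold change -0.87, SE 0.48, limma adjusted p = 0.315). Bst2, or tetherin, which holds budding virus on the cell, read 7.81, 6.44 and 7.57 against 6.03, 6.02 and 6.05. The KO-labelled arrays lay close together and control replicate 2 was nearer to them than the other controls, and Bst2 did not pass (log2 fold change -1.24, SE 0.32, limma adjusted p = 0.0617). Without control replicate 2 it did (0.00388). Samd9l, a restriction factor of poxviruses, had equal means of 6.37 in both groups.

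Of the 3 measured genes around ISG15, a ubiquitin-like protein, 2 fell. Usp18 removes ISG15 from proteins and blocks the type I receptor as a brake on the response. It read 7.20, 6.25 and 7.52 in controls and 4.14, 5.62 and 4.46 in KO-labelled arrays, a 4.75-fold decrease (log2 fold change -2.25, SE 0.44, limma adjusted p = 0.0254). Control replicate 2 and KO-labelled replicate 2 differed by less than the other pairs across groups. Usp18 did not pass with an offset of 16 added on the linear scale (0.0541), nor when an array other than the 2 numbered 2 was left out (0.0887 and 0.101 without control replicates 1 and 3, 0.0908 and 0.0921 without KO-labelled replicates 1 and 3). Herc6, the mouse ligase that attaches ISG15, fell by 1.33 (SE 0.21, limma adjusted p = 0.0124). Trim25, which ubiquitinates RIG-I, had a log2 fold change of -0.30 (SE 0.13) and did not pass (limma adjusted p = 0.202).

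All 5 genes of the PARP and ubiquitin ligase group fell. Trim30a, a ring-finger protein induced by interferon and Toll-like receptors, read 7.89, 7.43 and 8.00 in controls and 5.68, 6.54 and 5.96 in KO-labelled arrays, a 3.29-fold decrease (log2 fold change -1.72, SE 0.24, limma adjusted p = 0.00742). Parp14, Dtx3l and Parp9 are consecutive protein-coding genes, and Dtx3l and Parp9 form a complex that ubiquitinates histones. Their log2 fold changes were -0.67 (SE 0.12), -0.54 (SE 0.11) and -0.59 (SE 0.13). Parp12, which adds ADP-ribose to proteins and blocks viral translation, read 8.12, 7.98 and 8.24 against 7.20, 7.54 and 7.33 (log2 fold change -0.76, SE 0.11, limma adjusted p = 0.0101). The changes in this group were under 2-fold apart from Trim30a.

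None of the 3 measured interferon-inducible GTPases and none of the 3 antigen processing genes passed by limma; at an unadjusted p under 0.05, Irgm1 and Psmb9 were lower. Iigp1 and Irgm1 act on the vacuoles of intracellular parasites and are strong targets of interferon gamma. Iigp1 was the only member with a higher mean in KO-labelled arrays. It read 5.60, 5.36 and 5.12 in controls and 6.07, 5.80 and 5.10 in KO-labelled arrays, with overlap (log2 fold change 0.30, SE 0.25, limma adjusted p = 0.503). Irgm1 had a log2 fold change of -0.39 (SE 0.16) and Gbp3, a guanylate-binding protein, of -0.12 (SE 0.16), which turned to 0.05 without control replicate 1. Tap1 carries peptides to MHC class I, and Psmb8 and Psmb9 are immunoproteasome subunits. Their log2 fold changes were -0.49 (SE 0.22), -0.13 (SE 0.11) and -0.33 (SE 0.12), with adjusted p between 0.138 and 0.505 by limma. The difference between these 6 genes and the rest of the list was not tested.

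Among the remaining members 3 of 5 fell. Ifi35, a partner of Nmi, read 6.24, 6.24 and 6.41 in controls and 5.33, 5.70 and 5.44 in KO-labelled arrays (log2 fold change -0.81, SE 0.11, limma adjusted p = 0.00744). Rtp4, a chaperone of membrane receptors, fell by 1.49 (SE 0.30) and Xaf1, a promoter of cell death, by 0.98 (SE 0.17). KO-labelled replicates 1 and 3 of Xaf1, at 3.09 and 3.32, were under their array medians, and its fold size is uncertain. Epsti1 had a log2 fold change of -0.67 (SE 0.18, adjusted p = 0.0687) and the secreted glycoprotein Lgals3bp of -0.52 (SE 0.16, adjusted p = 0.0992) by limma. Epsti1 passed after quantile normalization (0.0447) and without control replicate 2 (0.0116).

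**Figure D2:**
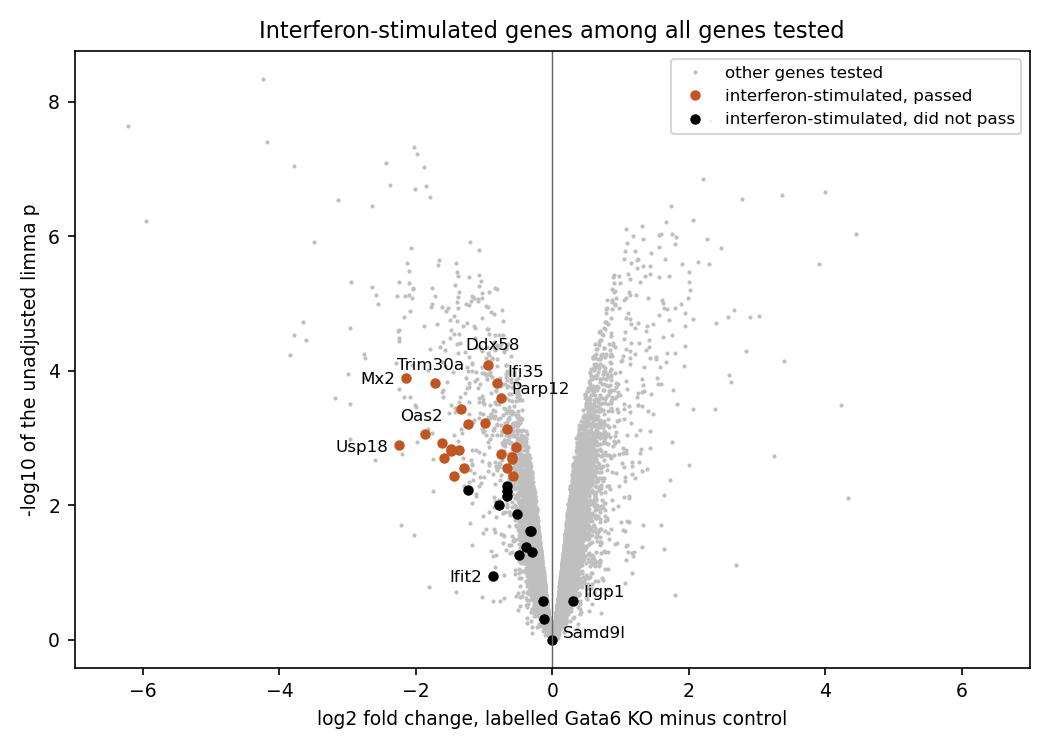
Log2 fold change (x axis) against -log10 of the unadjusted limma p (y axis) for all 19938 genes; filled circles are the 40 interferon-stimulated genes, of which 24 passed. All circles but Iigp1, and Samd9l at 0, lie left of 0, and other genes reach smaller p than any of them.

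The members also shared an order of arrays within each group. Control replicate 2 was the lowest control for 80.0% of them, against 41.8% of all genes, and KO-labelled replicate 2 was the highest of its group for 85.0%, against 33.0%. The median difference of the members from their control means was -0.22 on control replicate 2, 0.09 and 0.15 on control replicates 1 and 3, -0.52 on KO-labelled replicate 2, and -0.89 and -0.86 on replicates 1 and 3. The arrays of the 2 groups that came closest were thus those numbered 2.

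Calls of single members rested on few arrays. Ddx58, Mx2, Parp12, Trim30a and Ifi35 were called in all 6 fits that leave out 1 array, with adjusted p of 0.0114 to 0.0474 by limma. The other 19 kept the call in at most 3 of these 6 fits, and Mx1 lost it in each of them (limma adjusted p of 0.0507 to 0.124). The number called was 7 without control replicate 1, 5 without control replicate 3, which leaves female signals only, 7 without Gata6 KO replicate 1 and 5 without Gata6 KO replicate 3. It was 17 without control replicate 2 and 23 without Gata6 KO replicate 2. The share of all genes called lower was 1.39% to 2.99% in the same fits. The median log2 fold change of the members stayed between -0.85 and -0.67.

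**Figure D3:**
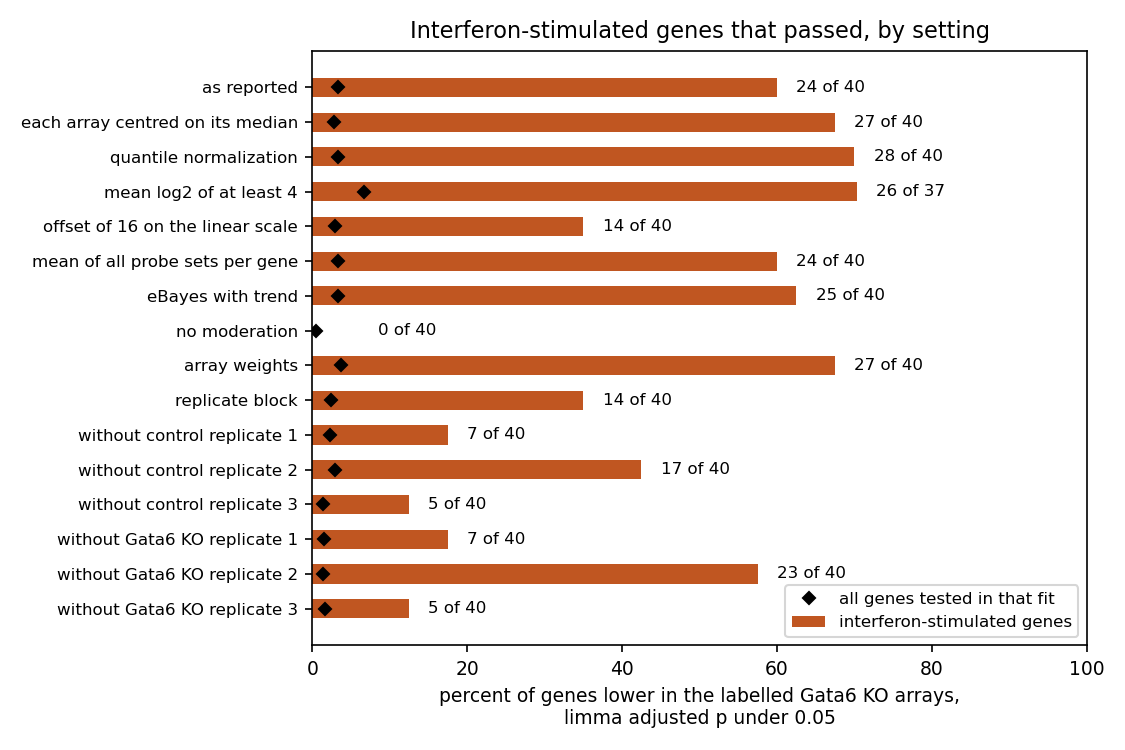
Percent of the interferon-stimulated genes (bars, with counts) and of all genes tested (diamonds) that were lower at a limma adjusted p under 0.05, for the reported fit and 15 alternatives. The count runs from 0 without variance moderation to 28 of 40 with quantile normalization, and the diamonds stay under 7%.

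None of the ligands, receptors, factors, adaptors and brakes listed outside the 40 members passed by limma. Among all 19938 genes, 2051 were lower and 2877 higher at an unadjusted p under 0.05. Of 12 measured interferon genes none passed by limma, 0 had an unadjusted p under 0.05, and 9 had control means below the array medians. Ifnl2, a type III interferon, averaged 4.59 in controls against 4.54 (log2 fold change -0.06, SE 0.11). Of 9 receptor subunits and kinases none passed (1 lower and 0 higher at an unadjusted p under 0.05), and their median was 0.12. The lower 1 was Ifnlr1, a subunit of the type III interferon receptor (log2 fold change -0.27, SE 0.09, limma adjusted p = 0.136). Every control read above every KO-labelled array for Ifnlr1. Ifngr1 and Ifngr2, the receptor of interferon gamma, had log2 fold changes of 0.19 (SE 0.09) and 0.13 (SE 0.10). None of 7 further STAT and IRF factors passed (0 at an unadjusted p under 0.05), and the highest log2 fold change among them was 0.29 (SE 0.13) for Irf1. None of 12 adaptors and other receptors for nucleic acid passed, with Mavs and Myd88 at 0.09 (SE 0.09) and 0.10 (SE 0.10) and 3 lower at an unadjusted p under 0.05. Nor did any of 11 brakes of the pathway, of which 2 were lower and 3 higher at an unadjusted p under 0.05. The lower 2 were Socs3 (log2 fold change -0.86, limma adjusted p = 0.0699) and Adar (-0.38, 0.0567). The higher 3 were Cish (0.42, limma adjusted p = 0.0513), Ptpn6 (0.29, 0.0608) and Ptpn11 (0.22, 0.102). With 3 arrays per group, a p that misses the threshold does not show that these levels were equal.

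Other targets of interferon were written as a separate list of genes outside the 40. Earlier results of these data were known by then, so the list is no independent check. Of 63 measured, 11 fell (17.5%, against 3.25% of all genes), 1 rose and 51 passed in neither direction, and the median was -0.19. Lgals9, a galectin, fell from 10.00 ± 0.23 to 8.72 ± 0.22 (SD, n = 3; log2 fold change -1.28, SE 0.15). Slfn5 fell by 1.42 (SE 0.23), the ring-finger protein Rnf213 by 1.37 (SE 0.21) and Ube2l6, the enzyme that carries ISG15 to its ligases, by 0.84 (SE 0.13). For these 4 genes the limma adjusted p lay between 0.00393 and 0.0130. The gene that rose, Plscr2, named after its value was seen, had means below the array medians. Of 14 measured genes of MHC class I presentation none passed by limma (1 lower and 1 higher at an unadjusted p under 0.05), and the median was -0.03. Among them B2m, the light chain of MHC class I, read 10.89 in both groups and Tapbp, the peptide-loading bridge, had a log2 fold change of 0.10 (SE 0.07). The lower 1 was H2-T24, which missed the threshold (log2 fold change -1.08, SE 0.27, limma adjusted p = 0.0566).

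**Figure D4:**
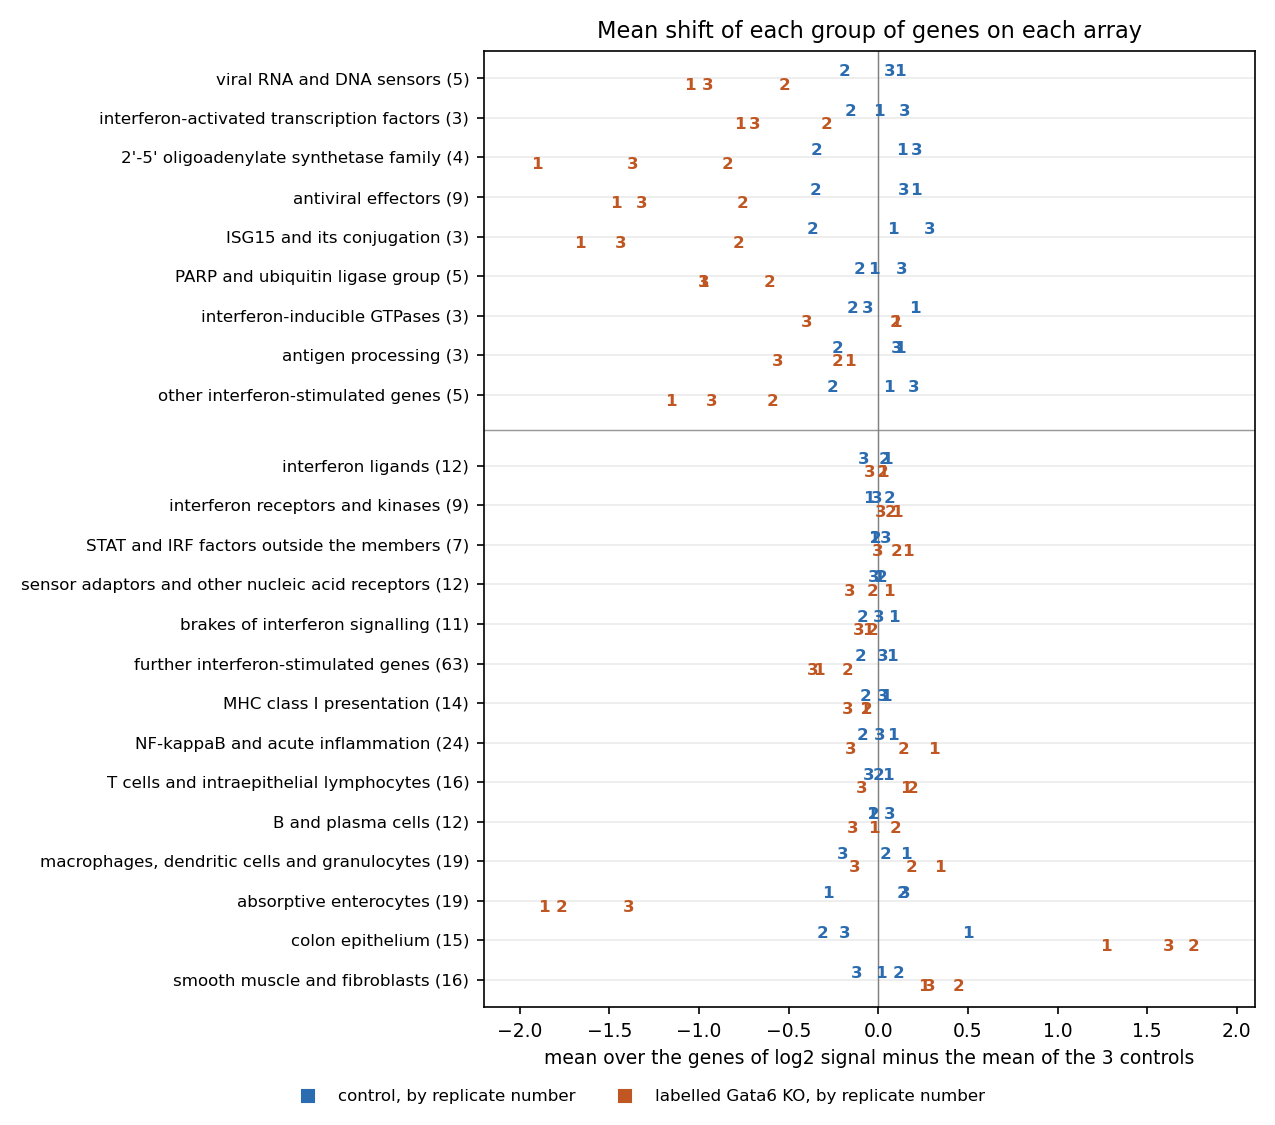
Mean over the genes of each group of log2 signal minus the mean of the 3 controls (x axis), with each array shown by its replicate number, for the roles among the interferon-stimulated genes (above the line) and the other lists (below it); measured genes are in parentheses. Replicates 1 and 3 of the KO-labelled arrays lie left of replicate 2 in the upper rows for sensors, transcription factors, synthetases, effectors and ISG15 genes. In the absorptive enterocyte row KO-labelled replicate 3 lies furthest right of its group.

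Markers of other cells were set beside these changes, and their part in them was not tested. The unadjusted counts below stand against 2051 lower and 2877 higher among all 19938 genes. Of 19 absorptive enterocyte genes 15 fell and none rose, with a median of -1.35, and the mean level of the list was 7.82 to 8.25 in controls and 6.24 to 6.71 in KO-labelled arrays. Mttp, which loads lipid onto lipoproteins, fell by 4.18 (SE 0.18). In the enterocyte list control replicate 1 was the lowest control and KO-labelled replicate 3 the highest of its group. The interferon-stimulated genes averaged 6.88 and 5.75 on those arrays. With 3 arrays per group, the relation between the 2 orders was not tested. Of 15 genes of colon epithelium 7 rose. The mean difference of the colon list from its control means was 0.50 on control replicate 1. On control replicates 2 and 3 it was -0.31 and -0.19. Control replicate 1, the lowest control of the enterocyte list, was thus the highest control of the colon list. None of 16 markers of T cells and intraepithelial lymphocytes passed by limma, with 0 lower and 2 higher at an unadjusted p under 0.05 (mean level 4.27 to 4.38 in controls and 4.23 to 4.51 in KO-labelled arrays), nor any of 12 of B and plasma cells, with 0 at an unadjusted p under 0.05 (4.08 to 4.18 and 3.97 to 4.21). Of 19 markers of macrophages, dendritic cells and granulocytes Cd14 and Ly6g rose and Siglech fell (4.50 to 4.85 and 4.56 to 5.03 for the list). In this list 2 were lower and 2 higher at an unadjusted p under 0.05. Besides Siglech, the lower 1 was Bst1 (log2 fold change -1.05, SE 0.26, limma adjusted p = 0.0534). Ly6g had means of 1.82 in controls and 2.30 in KO-labelled arrays, below the array medians, so its fold size is uncertain. Siglech marks plasmacytoid dendritic cells, which make type I interferon; it fell by 0.43 (SE 0.08, limma adjusted p = 0.0215), from a mean of 2.48 to 2.06, below the array medians in both groups. Tagln was the only 1 of 16 smooth muscle and fibroblast genes that rose, while 10 were higher at an unadjusted p under 0.05 and all 16 had a positive log2 fold change. The mean level of that list was 7.62 to 7.85 in controls and 7.99 to 8.19 in KO-labelled arrays, without overlap.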

How the data were processed

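The deposited log2 values, 1 per probe set and array, came from Affymetrix Expression Console according to the submitters' processing notes. Its version and its steps of background correction, scaling and summary are not stated in those notes or the labels. That the deposited unit is log2 was judged from the values. The table holds 35557 probe sets; 21789 have 1 symbol in GEO's platform annotation, while 1621 with several and 12147 with none were left out. Genes with more than 1 probe set were represented by the brightest. Genes were fitted with limma 3.58.1 in R 4.3.3 (lmFit, eBayes; Gata6 KO minus control, two-sided, Benjamini-Hochberg over 19938 genes, threshold 0.05), with no scaling or filter; SE is the moderated standard error. The fit was tested on 5 simulated data sets with 200 changed genes each. It recovered 43.9% of log2 changes of 0.5, 95.8% of 1 and 100% of 2, and 5.79% of its calls were false. In the real data 1643 genes were called, so this recovery need not hold there. Members, lists and roles were chosen with earlier results of these data known. Beyond the members, genes were named by rule: Gata6, and of each list at most 4 that passed with the smallest p, or the 2 brightest where none passed. Xist, Eif2s3y, Plscr2, Ifnlr1, H2-T24, Bst1, Socs3, Adar, Cish and Ptpn6 were named outside this rule. Probes of close family members, such as the synthetases, Ifit and Mx genes, may cross-hybridise, which was not tested. Alternatives covered scaling, a filter on dim genes, an offset, probe set choice, variance moderation, weighting of arrays, a block for the replicate number, and leaving out each array. Figures used matplotlib 3.10.9. The number of arrays limits the precision.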

Additional observations from a re-analysis of the deposited data

How the results depend on the processing

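The number of interferon-stimulated genes called lower, 24 of 40, was 14 with an offset of 16 on the linear scale, 0 without variance moderation (plain linear model, 28 at an unadjusted p under 0.05) and 5 to 23 with 1 array left out. With the replicate number as a block 14 were called, all among the 24. Same-numbered arrays of the groups had correlated deviations of 0.04, -0.04 and 0.15, so the numbers were not taken to pair the mice. Centring each array (27), quantile normalization (28), a filter on dim genes (26 of 37), the mean of all probe sets (24), eBayes with trend (25) and array weights (27) kept the count within 1.5 times. None was called higher in any of these fits, and the median log2 fold change moved by less than the spread between arrays. Genes that did not pass changed direction in some fits: B2m was -0.057 with quantile normalization and -0.049 to 0.06 with 1 array left out. In the latter fits Gbp3 ranged from -0.262 to 0.0538, Ifnl2 from -0.11 to 0.0205, Samhd1 from -0.138 to 0.022, Gzma from -0.11 to 0.264 and Jchain from -0.0558 to 0.174. No array carries a detection call, so levels below the array medians give no reliable fold size.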

Other observations

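Among 24 genes of NF-kappaB and acute inflammation, Nos2, the inducible nitric oxide synthase, fell by 0.89 (SE 0.15) and Nfkb2 rose by 0.33 (SE 0.07), with limma adjusted p of 0.0138 and 0.0373, and the other 22 did not pass. Nfkb2 did not pass when any 1 array was left out (0.0572 to 0.113).

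By mean log2 signal, both members under the lowest array median fell, where 1.47% of all genes did, and both members from there to 5, where 2.56% did. Of the brighter members, 15 of the 25 between 5 and 7 fell, where 4.88% of all genes did, and 5 of the 11 at 7 and over, where 7.98% did.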
